A study of Mus musculus with 12 samples.

Results

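The response of control mouse livers to tunicamycin was described across all genes, from 6 of the 12 arrays of the series. They were the 3 arrays titled Fe+CRE+Tm (livers of tunicamycin-injected mice) and the 3 titled Fe+CRE+ (livers of vehicle-injected mice), chosen by these titles alone. The series also holds 6 arrays of livers lacking Ire1α, titled Fe-CRE+, which enter here as a comparison at the end. All mice were C57Bl/6J and 3 months old, both genotypes were labelled CRE+, and the controls thus carried Cre as the null mice did. The null mice are called conditional, while the promoter that drives Cre, the part of the gene that is deleted and whether the controls carry floxed alleles are stated in none of the sources used here. Tunicamycin was injected into the peritoneum at 2 µg per g of body weight, the vehicle was 150 µM dextrose, and livers were taken 8 hours later. Levels are log2 intensities of Affymetrix probe sets after normalization, 1 probe set per gene, changes are tunicamycin minus vehicle on that log2 scale with the standard error of the limma fit, and n is 3 arrays per group throughout. A gene is said to have risen or fallen where the limma p value, adjusted by Benjamini-Hochberg over 14568 genes, lay under 0.05. For every other gene only values are given.

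Tunicamycin blocks the first step of N-linked glycosylation, so that newly made secretory proteins do not fold in the endoplasmic reticulum (ER). The unfolded protein response has 3 sensors in the ER membrane. Ire1α splices the Xbp1 transcript, PERK phosphorylates the translation factor eIF2 and thereby slows protein synthesis while the transcription factors ATF4 and CHOP are made, and ATF6 is cut in the Golgi to release a transcription factor. Hepatocytes secrete most plasma proteins and carry a large ER, and the same cells run lipid, bile acid, drug and amino acid metabolism, so a stress of the ER in liver can be read in many functions besides folding.

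Trimmed mean intensities were 234 to 261 in the vehicle arrays and 277 to 297 in the tunicamycin arrays, so the groups did not overlap. Of 12 hepatocyte markers tested none rose or fell, but 11 of them lay within 1 log2 unit of the lowest array maximum (13.9), where a level can hardly be seen to rise. The actin control probe sets at the 5' end over those at the 3' end, a ratio that is lower where RNA is shorter or labelling less complete, gave 0.454 to 1.10 in vehicle arrays and 0.295 to 0.389 in tunicamycin arrays (exact permutation test, two-sided, p = 0.1, which 3 against 3 arrays cannot go below), whereas the Gapdh ratio had an exact p of 0.9. Counts obtained with the actin ratio as a covariate of the fit, called the actin covariate here, are therefore given beside most gene groups. Over all genes the median change was -0.11 with quantile normalization, -0.01 with array medians centred and 0.01 for values as deposited, and the split into rises and falls moved with it, so that counts with centred medians are given too. Where such counts follow a list in brackets, rises come first and falls second. In a bulk tissue, fewer cells of a type and less RNA per cell cannot be told apart.

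Ern1, which encodes Ire1α, was present in both groups. The Ern1 level was 10.87, 10.50 and 10.31 in the vehicle arrays and 11.71, 11.40 and 11.66 in the tunicamycin arrays. All tunicamycin arrays lay above all vehicle arrays, and the change was 1.03 ± 0.24 (adjusted p = 0.00843). This call rests on the brightest of 4 probe sets: the mean of the probe sets changed by -0.09 (adjusted p = 0.699), and with the actin covariate the change was 0.74 (adjusted p = 0.175).

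The response ran both ways. Of 14568 genes tested 3636 (25%) passed, 1693 as rises (11.6%) and 1943 as falls (13.3%). Changes of at least 2-fold were more often rises, 789 (5.42%) against 625 falls (4.29%). The excess grew with size: 189 genes rose and 88 fell more than 4-fold, and 22 rose and 1, Acot3, fell more than 16-fold. For 6200 genes (42.6%) the 3 tunicamycin arrays lay wholly above or wholly below the 3 vehicle arrays, 2625 above and 3575 below. Rises made up 46.6% of the called genes after quantile normalization, but 2100 of 3281 with centred medians and 2062 of 3130 (65.9%) as deposited. With the actin covariate 1765 genes passed, 982 rises and 783 falls. Of the 1941 called genes read by several probe sets, 1531 had every probe set changing in the same direction. In 19 another probe set was called the opposite way.

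**Figure D1:**
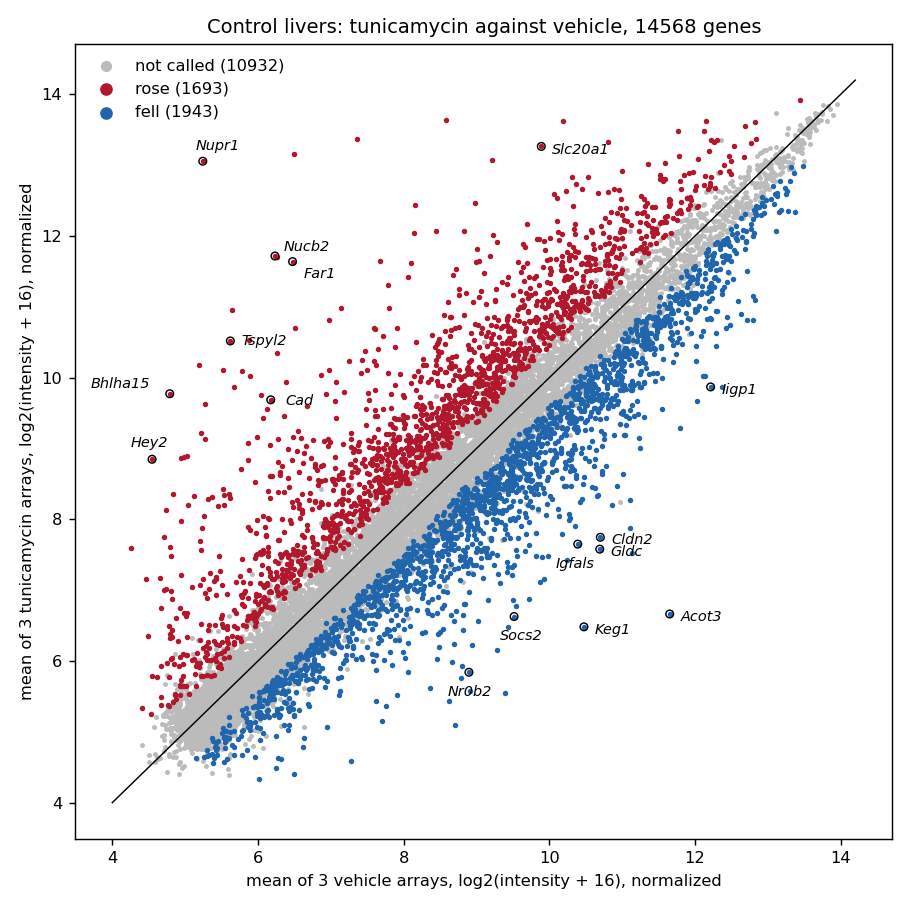
Mean log2(intensity + 16) of the 3 vehicle arrays (horizontal) against that of the 3 tunicamycin arrays (vertical) for each of 14568 genes, with the line of equal levels. Red points (1693) rose, blue points (1943) fell, grey points were not called. Nupr1 stands farthest above the line and Acot3 farthest below it.

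The ER's own machinery rose. Of 30 chaperone and folding genes 26 rose and none fell, with a median change of 1.58 (1.69 above the median of all genes). Of 26 genes of ER-associated degradation, which returns misfolded protein to the cytosol, 19 rose, as did 17 of 23 for translocation into the ER, 31 of 45 for traffic to the Golgi and 20 of 41 for N-glycosylation. With the actin covariate these 5 lists had 24, 16, 14, 25 and 19 rises. Among the sensors and their processing factors 8 of 17 rose and none fell. They included the sensor genes Atf6 (1.87 ± 0.16) and Eif2ak3, which encodes PERK (2.03 ± 0.33), the ATF6-like factor gene Creb3l2 (2.55 ± 0.19), and Wfs1, which encodes the ER membrane protein wolframin (3.12 ± 0.19). Wfs1 stood at 7.35, 7.71 and 7.70 in vehicle livers and at 10.73, 10.87 and 10.52 with tunicamycin. The groups were more than 2 log2 units apart. The vesicle fusion genes for this route rose as well: Stx5a (2.22 ± 0.13), Sec22b (1.93 ± 0.16), Bet1 (1.41 ± 0.18) and Gosr2 (1.13 ± 0.14), which form one fusion complex between ER and Golgi, were the 4 largest rises among 31 fusion (SNARE) genes, of which 8 rose and 4 fell (11 and 0 with centred medians, 4 and 2 with the actin covariate). Slc35b1, the ATP carrier of the ER membrane (2.47 ± 0.15), Uso1, a tether of ER vesicles (1.82 ± 0.13), and Piga, the first enzyme of the lipid anchor that holds proteins on the cell surface (3.37 ± 0.19), rose with them. Of the 22 anchor synthesis genes, however, 2 rose (9.09%) and 3 fell (13.6%), near the 11.6% and 13.3% of all genes (2 and 0 with centred medians, 2 and 0 with the actin covariate). The translocon-associated gene Tram2 went the other way, falling (change -1.86 ± 0.25, adjusted p = 0.000194).

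The promoters of several of these genes hold the ER stress element, the sequence first found in chaperone promoters and bound there by ATF6 and XBP1. Promoter windows of 250 bases before to 50 after each start were taken from RefSeq (build GRCm38.p6) for 11609 of the tested genes. The element was searched on both strands as CCAAT, 9 bases of any kind, and CCACG. It was found in 9 of 647 genes that rose at least 2-fold (1.39%) and 1 of 494 that fell at least 2-fold (0.202%). Without the fold limit it was in 11 of 1405 genes that rose (0.783%) and 1 of 1548 that fell (0.0646%). Among genes not called it was in 5 of 8656 (0.0578%), and among all 11609 genes in 17 (0.146%). Over all 32851 windows of the table it occurred in 39 (0.119%). Sequences are shown for the 6 genes with the largest rises among those whose element lies wholly before the start. Genes of a chromosome that was set aside were not considered for printing. The sequences run 5′ to 3′ on the gene's strand, with the element in capitals, to set the letters beside the levels. They lie at chr10:75893217-75893285 (+), chr15:88819495-88819563 (+), chr19:6046507-6046575 (+), chr13:12565657-12565725 (+), chr12:17266466-17266534 (+) and chr15:88819495-88819563 (-), in the order printed.
Derl3: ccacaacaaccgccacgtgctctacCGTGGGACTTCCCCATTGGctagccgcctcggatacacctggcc
Creld2: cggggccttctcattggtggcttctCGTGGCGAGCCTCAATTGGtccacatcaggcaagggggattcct
Syvn1: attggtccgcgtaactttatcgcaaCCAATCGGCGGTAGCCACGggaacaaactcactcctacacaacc
Ero1b: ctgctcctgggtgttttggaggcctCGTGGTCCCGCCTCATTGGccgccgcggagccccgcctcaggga
Pdia6: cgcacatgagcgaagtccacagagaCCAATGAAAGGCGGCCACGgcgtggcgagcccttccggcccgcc
Alg12: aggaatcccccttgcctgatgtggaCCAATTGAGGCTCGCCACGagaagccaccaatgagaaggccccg
Creld2, which encodes a disulfide isomerase-like ER protein, and Alg12, which encodes a mannosyltransferase of glycan assembly, start back to back on chromosome 15 and share 1 element, read here on opposite strands. Derl3 read 6.25, 6.60 and 6.64 in the vehicle arrays and 13.06, 13.24 and 13.15 in the tunicamycin arrays. This component of the degradation channel rose by 6.66 ± 0.31. For Creld2 the vehicle arrays held 9.22, 8.45 and 8.10 and the tunicamycin arrays 13.67, 13.64 and 13.61. With vehicle Alg12 was at 7.39, 7.12 and 6.72, with tunicamycin at 9.61, 9.45 and 9.24. All 3 tunicamycin arrays lay above the vehicle arrays in each of these genes. The rise of Creld2 was 5.05 ± 0.23 and that of Alg12 2.36 ± 0.25, but Alg12 depended on its probe set: its 3 probe sets changed by 0.09 to 2.36, and its value without tunicamycin replicate 1 or 2 was 0.28 or 0.03 (adjusted p = 0.611 and 0.966). Syvn1, the ubiquitin ligase of ER-associated degradation (3.87 ± 0.13), Ero1b, the oxidase that recharges disulfide isomerases (2.52 ± 0.13), and Pdia6, such an isomerase (2.37 ± 0.28), completed the set. The related element TGACGTGG, searched on both strands, was in 20 of 647 genes that rose at least 2-fold (3.09%) and 4 of 494 that fell at least 2-fold (0.81%). Without the fold limit it was in 40 of 1405 genes that rose (2.85%) and 13 of 1548 that fell (0.84%). Among all 11609 genes it was in 121 (1.04%). Over all windows of the table, which hold several starts of some genes, it was in 0.676%. A match is a description of the letters and not a measured site.

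Targets of ATF4 and CHOP rose in most cases, and Nupr1 among them had the largest change of all genes. Of 24 listed 17 rose and 1 fell, with a median of 1.55, and 16 rose with the actin covariate. Levels of Nupr1 were 5.48, 5.002 and 5.25 with vehicle and 13.09, 13.01 and 13.07 with tunicamycin. This stress-response cofactor went from near the bottom of the scale to near its top, by 7.81 ± 0.32 (adjusted p = 4.14e-08). Vehicle arrays gave 7.34, 7.31 and 7.44 for Ddit3, and tunicamycin arrays 13.41, 13.32 and 13.37. The gene encodes CHOP, and its tunicamycin arrays agreed within 0.1 log2 unit. Fgf21 gave 5.76, 4.72 and 5.11 in vehicle livers and 10.19, 10.02 and 10.31 in tunicamycin livers. Fgf21, a hormone that liver releases in fasting and amino acid shortage, rose by 4.98 ± 0.41 (adjusted p = 6.08e-06). The eIF2 phosphatase cofactor gene Ppp1r15a, which reopens translation, rose by 2.62 ± 0.19.

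ATF4 binds with C/EBP partners at composite elements, searched here as TGATGNAA on both strands. The letters were in the windows of 27 of 647 genes that rose at least 2-fold (4.17%) and 16 of 494 that fell at least 2-fold (3.24%). Without the fold limit they were in 49 of 1405 genes that rose (3.49%) and 48 of 1548 that fell (3.1%). They were in 2.95% of genes not called, 3.03% of all 11609 genes and 3.97% of all windows of the table. Printed with the match in capitals are the 6 genes with the largest rises whose match lies wholly before the start. The chromosome set aside was again not considered. Most of the 6 are established ATF4 targets. They lie at chr7:126625548-126625605 (-), chr1:191183411-191183468 (-), chr7:45615597-45615654 (-), chr2:119351024-119351081 (+), chr8:12915661-12915711 (+) and chr6:7693210-7693257 (-).
Nupr1: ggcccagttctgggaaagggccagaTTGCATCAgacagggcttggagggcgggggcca
Atf3: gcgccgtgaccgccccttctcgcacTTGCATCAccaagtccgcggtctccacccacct
Fgf21: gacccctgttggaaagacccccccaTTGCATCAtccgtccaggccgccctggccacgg
Chac1: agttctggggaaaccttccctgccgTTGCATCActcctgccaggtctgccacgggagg
Mcf2l: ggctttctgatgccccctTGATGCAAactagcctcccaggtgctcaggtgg
Asns: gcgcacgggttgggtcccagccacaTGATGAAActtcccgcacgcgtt
The first 4 carry the same 8 letters, TTGCATCA, which are TGATGCAA read from the other strand. Atf3, a stress-induced repressor, rose by 5.45 ± 0.22. Chac1, which degrades glutathione, rose by 3.98 ± 0.40, and Asns, the asparagine synthetase gene, by 3.44 ± 0.50. The Mcf2l level was 4.93, 5.27 and 4.89 in the vehicle arrays and 9.30, 9.34 and 8.03 in the tunicamycin arrays. Mcf2l, a gene on no list, rose by 3.86 ± 0.31 (adjusted p = 4.8e-06), with tunicamycin replicate 3 the lowest of its group.

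Several of the largest rises lay outside the ER and ATF4 lists. Nucb2 stood at 6.56, 6.28 and 5.86 in vehicle livers and at 11.98, 11.88 and 11.29 with tunicamycin. Nucb2, a calcium-binding protein of the secretory pathway and the precursor of nesfatin-1, rose by 5.48 ± 0.45 (adjusted p = 6.08e-06). Far1 read 6.80, 6.51 and 6.12 in the vehicle arrays and 12.15, 12.42 and 10.34 in the tunicamycin arrays. Far1, which reduces fatty acyl-CoA to the alcohols of ether lipids, rose by 5.16 ± 0.78 (adjusted p = 0.000497), and tunicamycin replicate 3 was lower than the others by more than 1 log2 unit. For Bhlha15 the vehicle arrays held 4.67, 4.66 and 5.03 and the tunicamycin arrays 10.21, 10.20 and 8.90. Bhlha15 encodes MIST1, a transcription factor of professional secretory cells. Its rise was 4.98 ± 0.37 (adjusted p = 2.76e-06), again with replicate 3 the lowest, and its vehicle levels were near the floor of the scale. With vehicle Tspyl2 was at 5.57, 5.67 and 5.63, with tunicamycin at 10.27, 10.79 and 10.50. Tspyl2, of the nucleosome assembly family, rose by 4.90 ± 0.15 (adjusted p = 9.39e-09) with tight arrays on both sides. The zinc finger gene Zfp9 (4.36 ± 0.20) and the inositol pyrophosphate kinase gene Ppip5k1 (4.31 ± 0.21) rose to a like extent. The developmental factors Hey2, a repressor downstream of Notch (4.30 ± 0.21), and Irx3, a homeobox factor (4.20 ± 0.35), were both under 6 in vehicle arrays and above 8 with tunicamycin. Ube2c, the ubiquitin-conjugating enzyme of the anaphase-promoting complex (4.13 ± 0.42), and Tes, a focal adhesion protein (4.09 ± 0.26), rose too. Ube2c was not accompanied by a general rise of cell division genes: of 31 listed 4 rose (12.9%, against 11.6% of all genes) and 2 fell (4 and 1 with centred medians, 2 and 0 with the actin covariate), among them the rises of the cyclin E2 gene Ccne2 (2.17 ± 0.31) and of Rbl1, a pocket protein (2.13 ± 0.27). The vesicular nucleotide transporter Slc17a9 (3.91 ± 0.23), the sulfate transporter Slc26a2 (3.72 ± 0.30) and the phosphate transporter Slc20a1 (3.37 ± 0.22) were the largest rises among 303 solute carriers, of which 39 rose (12.9%) and 57 fell (18.8%, against 13.3% of all genes) (43 and 39 with centred medians, 27 and 25 with the actin covariate). Ccdc134, a secreted coiled-coil protein gene, rose by 4.19 ± 0.20 on its brighter probe set and stood at -0.15 on the other.

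**Figure D2:**
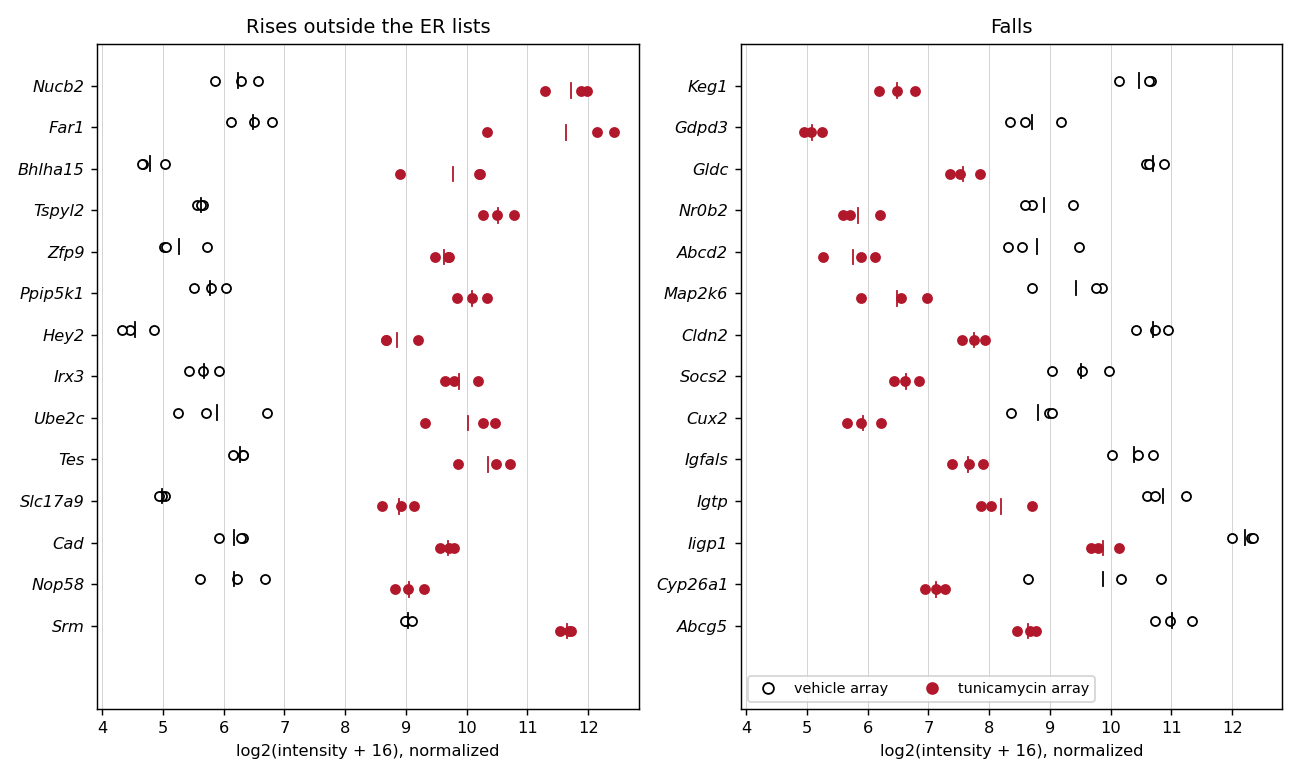
Level of 14 genes that rose and 14 that fell, as log2(intensity + 16), in each vehicle array (open circles) and each tunicamycin array (filled circles) of control livers, with a tick at each group mean. In all 28 genes the groups are separate, and the spread within a group is widest for Far1, Bhlha15 and Ube2c among rises and for Cyp26a1 among falls.

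Genes that build the translation apparatus rose. Of 60 ribosome biogenesis genes 33 rose and 1 fell (34 rises with centred medians, 18 with the actin covariate), and the median was 0.59, or 0.70 above all genes. Levels of Nop58 were 6.67, 6.21 and 5.62 with vehicle and 9.30, 9.03 and 8.82 with tunicamycin. Nop58 belongs to the particles that modify ribosomal RNA and rose by 2.88 ± 0.35 (adjusted p = 0.000101). Gar1, of the pseudouridine-forming particles (2.26 ± 0.22), and the assembly factors Ppan (1.81 ± 0.29) and Rrp12 (1.67 ± 0.23) rose with it. Of 20 cytosolic aminoacyl-tRNA synthetase genes 14 rose and 1 fell (11 rises with the actin covariate), with a median of 1.02, among them Lars for leucine (1.33 ± 0.14), Nars for asparagine (1.31 ± 0.12) and Vars for valine (1.14 ± 0.19). Of 16 mitochondrial synthetase genes 3 rose (18.8%, against 11.6% of all genes) and 1 fell (6.25%, against 13.3%), with a median of 0.01. The counts were 4 and 0 with centred medians, and 3 and 1 with the actin covariate. The rises included Ears2 for glutamate (1.31 ± 0.17) and Cars2 for cysteine (0.97 ± 0.16). The difference between the cytosolic and mitochondrial lists was not tested. Translation factors rose in 19 of 42 cases and fell in 1 (11 rises with the actin covariate, 12 to 18 when 1 control array was left out), with Eif1a, of start codon selection (1.71 ± 0.16), and Eif4g3, of the cap-binding scaffold (1.33 ± 0.15), rising and Eif4ebp2, an inhibitor of cap binding (-0.98 ± 0.13), falling. Few genes of the proteins of the cytosolic ribosome itself were called: 2 of 46 rose (4.35%, against 11.6% of all genes), and 0 fell. Rpl12 (1.88 ± 0.26) was one of the rises, and the median was 0.10, or 0.21 above all genes. In 19 of the 46 every tunicamycin array lay above every vehicle array, and in 1 below. Over all 14568 genes these counts were 2625 above and 3575 below. Ribosomal protein genes have many near-identical copies, so a probe set may read more than 1.

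Genes of nucleotide and polyamine supply changed both ways. Vehicle arrays gave 6.32, 6.29 and 5.92 for Cad, and tunicamycin arrays 9.79, 9.70 and 9.57. Cad carries out the first steps of pyrimidine synthesis and rose by 3.51 ± 0.17 (adjusted p = 1.02e-07). Ctps, which makes CTP, rose by 2.09 ± 0.22, whereas the thymidine kinase gene Tk1 fell (-1.64 ± 0.28). Over the list of 36 nucleotide genes 3 rose (8.33%, against 11.6% of all genes) and 11 fell (30.6%, against 13.3%), 7 of these at least 2-fold. The counts were 5 and 7 with centred medians, and 2 and 3 with the actin covariate. Srm gave 8.997, 8.99 and 9.09 in vehicle livers and 11.68, 11.72 and 11.53 in tunicamycin livers. Srm is the spermidine synthase gene and rose by 2.62 ± 0.13 (adjusted p = 1.02e-07). The spermine oxidase gene Smox rose by 2.31 ± 0.15, and these were the 2 rises among 9 polyamine genes. Aldh18a1, the entry enzyme of proline synthesis, rose by 2.99 ± 0.40 and was the 1 rise among 24 aldehyde and alcohol dehydrogenases. Slc7a1, a carrier of arginine and lysine, rose (1.43 ± 0.32) and the lysosomal amino acid carrier Slc36a1 fell (-1.46 ± 0.17).

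**Figure D3:**
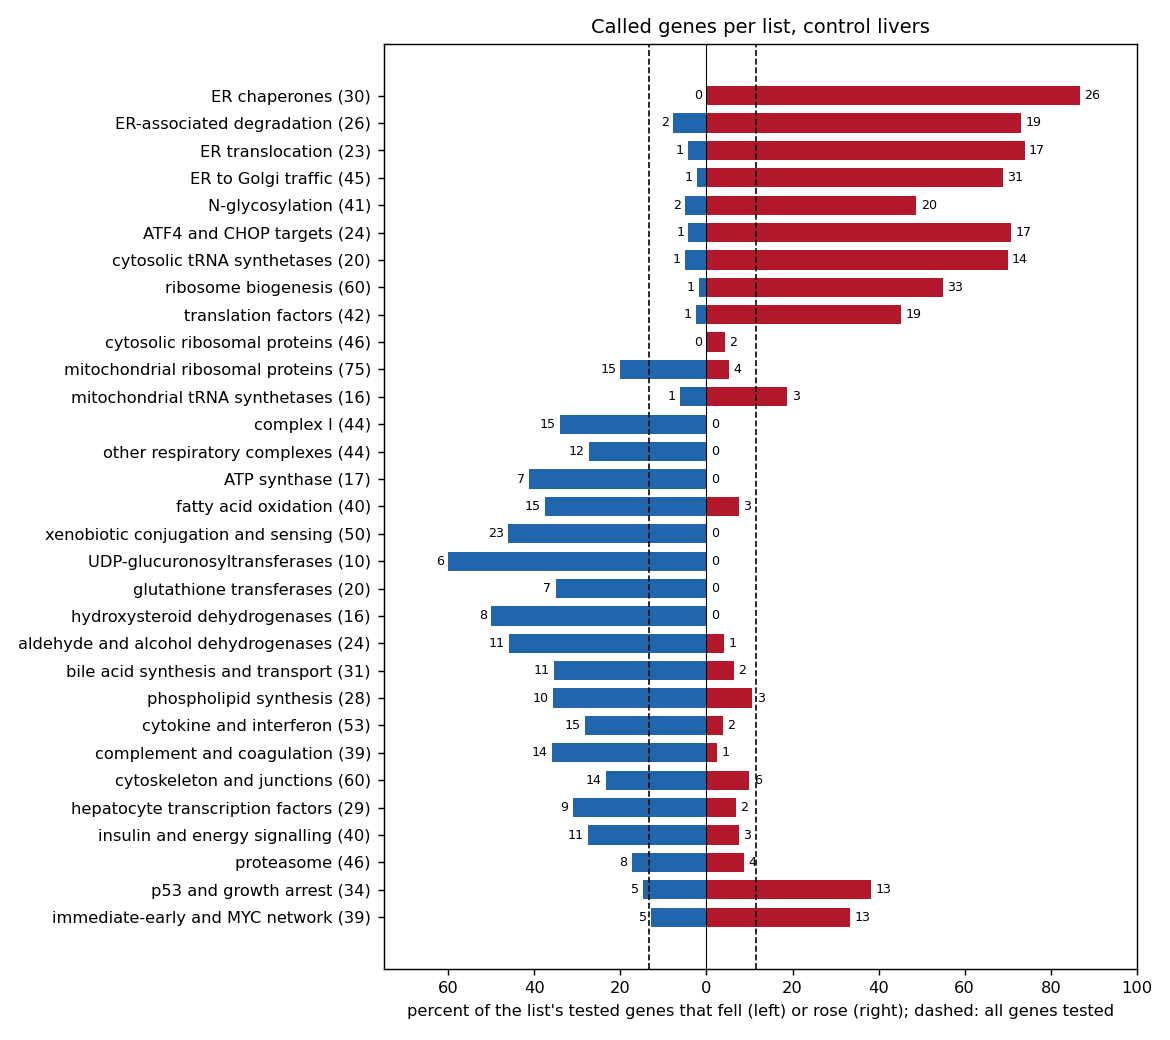
Percent of the tested genes of each list that rose (red, right) or fell (blue, left) in control livers, with the number of genes at each bar and the number tested after each name. The dashed lines mark 11.6% rises and 13.3% falls over all genes: the bars of the ER lists, cytosolic synthetases, ribosome biogenesis and translation factors pass the right line, and those of the respiratory, conjugation and dehydrogenase lists pass the left.

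Genes of the respiratory chain and ATP synthase gave falls and no rises, while other mitochondrial lists gave both. Of 44 complex I genes none rose and 15 fell, with a median of -0.36 (-0.26 relative to all genes). Ndufa5 (-0.72 ± 0.14), a subunit, and Ndufaf6 (-0.85 ± 0.16), an assembly factor, fell, and the largest fall of the list was under 2-fold. Of 17 ATP synthase genes none rose and 7 fell, with Atp5k at -0.76 ± 0.13, and of the 44 other respiratory chain genes none rose and 12 fell. Sdhd (-1.02 ± 0.14), a membrane subunit of complex II, its assembly factor Sdhaf4 (-1.19 ± 0.13), and Cox20 (-1.13 ± 0.18), an assembly factor of complex IV, led them. These counts were sensitive to the scale: with centred medians 4, 2 and 5 genes fell and 3 of the last list rose, with the actin covariate 4, 1 and 3, and without 1 control array 7 to 12, 2 to 4 and 4 to 8. Of 75 mitochondrial ribosomal proteins 4 rose and 15 fell, but 12 rose and 6 fell with centred medians. Mrpl49 was an exception in size. The Mrpl49 level was 10.07, 9.86 and 9.85 in the vehicle arrays and 7.25, 7.06 and 7.18 in the tunicamycin arrays. It fell (change -2.77 ± 0.20, adjusted p = 2.47e-06), and its other probe set changed by -1.16. Mrps18b (1.55 ± 0.14) and Mrps12 (1.45 ± 0.21) of the small subunit rose. Of 37 genes of mitochondrial import, chaperones and proteases 8 rose (21.6%) and 2 fell (10 and 0 with centred medians, 2 and 1 with the actin covariate). They included Atf5, a transcription factor of mitochondrial protein stress (2.13 ± 0.39), the import pore gene Tomm40 (1.21 ± 0.29), and the matrix unfoldase gene Clpx (1.17 ± 0.24) and protease gene Lonp1 (0.74 ± 0.17). With the actin covariate Atf5, Tomm40 and Clpx did not pass (adjusted p = 0.0506, 0.19 and 0.12). Of 41 carriers of the inner membrane 7 rose and 9 fell (7 and 4 with centred medians, 5 and 1 with the actin covariate), where the iron importer Slc25a28 rose (1.52 ± 0.15) and the calcium-regulated carrier Slc25a23 fell (-1.63 ± 0.27).

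**Figure D4:**
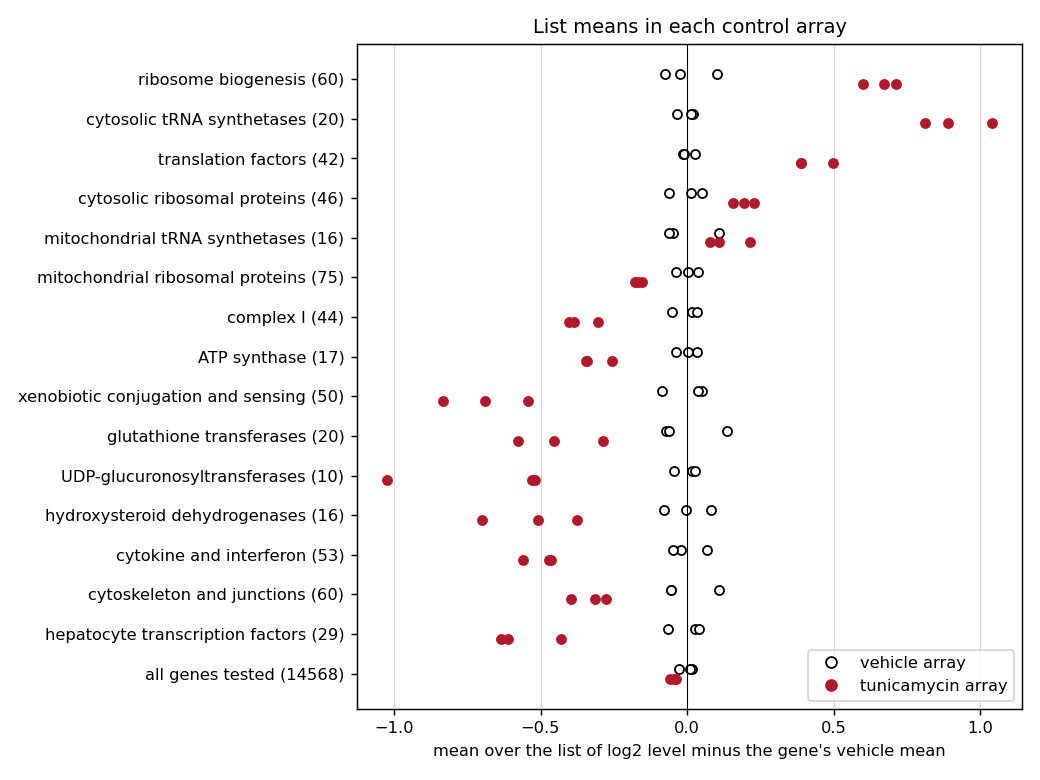
For each list, the mean over its genes of the log2 level minus the gene's vehicle mean, in each vehicle array (open) and each tunicamycin array (filled) of control livers. Ribosome biogenesis lies at 0.60 to 0.71 and complex I at -0.40 to -0.30 in the tunicamycin arrays, and the mean of all genes lies at -0.06 to -0.04.

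Many genes of drug conjugation fell, and most P450 genes were not called. Of 50 genes of conjugation and xenobiotic sensing 23 fell and none rose, with a median of -0.54 (15 falls with centred medians, 9 with the actin covariate). Nr1i3 stood at 10.76, 11.27 and 11.28 in vehicle livers and at 8.40, 7.87 and 8.56 with tunicamycin. Nr1i3 encodes CAR, a nuclear receptor that switches on drug-metabolizing enzymes, and it fell (change -2.83 ± 0.27, adjusted p = 1.82e-05). Ahr, the receptor of dioxin-like compounds, fell as well (-1.49 ± 0.21). In the same livers Cyp2b10, a P450 that CAR controls, rose. Cyp2b10 read 10.39, 10.99 and 10.24 in the vehicle arrays and 12.69, 12.83 and 12.98 in the tunicamycin arrays. Its change was 2.29 ± 0.31 (adjusted p = 0.000231), the larger of 2 rises among 50 P450 genes. Of these 8 fell (16%, against 13.3% of all genes), Cyp2g1 farthest (-2.43 ± 0.24), but 2 fell with centred medians and 1 with the actin covariate. For Cyp26a1 the vehicle arrays held 8.64, 10.83 and 10.16 and the tunicamycin arrays 6.95, 7.13 and 7.28. Cyp26a1, which clears retinoic acid, changed by -2.76 ± 0.50 (adjusted p = 0.00164) and by -2.25 (adjusted p = 0.0538) with the actin covariate. Of 10 glucuronosyltransferases 6 fell (3 with centred medians, 0 with the actin covariate), with Ugt2b35 at -1.34 ± 0.28 (adjusted p = 0.0528 with that covariate). Members of this family resemble each other closely, so their probe sets may read more than 1 gene. Of 20 glutathione transferases 7 fell (5 and 2), Gsta4 among them (-1.51 ± 0.23). The alcohol dehydrogenase Adh4 (-1.73 ± 0.24), the flavin monooxygenase Fmo4 (-1.98 ± 0.23) and the retinal- and aldehyde-oxidizing Aldh8a1 (-1.12 ± 0.17) and Aldh1a7 (-1.21 ± 0.18) fell with them. In a list that joins NRF2 targets with glutathione and thioredoxin genes, the quinone reductase gene Nqo1 fell (-1.59 ± 0.18). Srxn1 (sulfiredoxin, 1.61 ± 0.16) and Ggct, of glutathione breakdown (1.77 ± 0.27), rose. Over the 31 genes of that list 4 rose and 11 fell (5 and 7 with centred medians, 4 and 7 with the actin covariate). Its largest rise was that of Chac1 (3.98), counted above with the ATF4 and CHOP targets, so the counts are not those of NRF2 targets alone.

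The sterol export genes fell, and 11 of 31 bile acid genes did. With vehicle Abcg5 was at 10.72, 11.35 and 10.98, with tunicamycin at 8.78, 8.46 and 8.67. Levels of Abcg8 were 9.80, 10.65 and 10.59 with vehicle and 7.79, 7.42 and 8.49 with tunicamycin. These genes encode the 2 parts of the transporter that moves sterols into bile, and they lie head to head in the genome. Abcg5 changed by -2.38 ± 0.28 (adjusted p = 8.3e-05) and Abcg8 by -2.45 ± 0.33 (adjusted p = 0.000237), and in both the groups were more than 1 log2 unit apart. Vehicle arrays gave 8.71, 8.59 and 9.39 for Nr0b2, and tunicamycin arrays 5.71, 5.60 and 6.21. Nr0b2 encodes SHP, the repressor through which bile acids limit their own synthesis. It changed by -3.06 ± 0.71 (adjusted p = 0.00764), with an adjusted p of 0.0805 with the actin covariate. Slc10a1, the main carrier that takes bile acids up from blood (-0.92 ± 0.14), and Akr1d1, a reductase of bile acid synthesis (-1.10 ± 0.19), fell, while the basolateral export pump Abcc4 rose (1.85 ± 0.27). In the bile acid list 2 genes rose, 11 fell and 18 were not called (3 rises and 6 falls with centred medians, 1 and 6 with the actin covariate).

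After quantile normalization the lipid lists held more falls than rises, as did all genes (13.3% against 11.6%). For fatty acid and triglyceride synthesis this turned with the scale. Of 35 such genes 5 rose (14.3%) and 9 fell (25.7%), but 6 rose and 5 fell with centred medians (2 and 7 with the actin covariate). Of 25 lipoprotein genes 1 rose (4%) and 6 fell (24%) (1 and 5 with centred medians, 1 and 3 with the actin covariate). Acot3 gave 11.78, 11.45 and 11.73 in vehicle livers and 6.73, 6.29 and 6.97 in tunicamycin livers. Acot3, a peroxisomal acyl-CoA thioesterase, fell the most of all genes (-4.99 ± 0.43). The Acot2 level was 8.63, 8.85 and 8.44 in the vehicle arrays and 11.14, 10.58 and 10.84 in the tunicamycin arrays. Its mitochondrial relative Acot2 rose (2.21 ± 0.23) on 1 of its 2 probe sets, the other being at 0.10. These genes are near-identical neighbours, so their signals are uncertain. Abcd2 stood at 9.48, 8.55 and 8.31 in vehicle livers and at 6.12, 5.89 and 5.27 with tunicamycin. Abcd2, a peroxisomal importer of very long fatty acids, fell (-3.02 ± 0.35, adjusted p = 6.62e-05), and Acsl4, which activates arachidonic acid, rose (1.43 ± 0.15). Over 40 genes of fatty acid oxidation 3 rose (7.5%) and 15 fell (37.5%) (3 and 8 with centred medians, 3 and 6 with the actin covariate). Lpin3 read 5.65, 5.60 and 5.30 in the vehicle arrays and 8.58, 8.08 and 8.64 in the tunicamycin arrays. Lpin3, a phosphatidate phosphatase, rose by 2.92 ± 0.25 (adjusted p = 9.42e-06). Among 28 phospholipid synthesis genes 3 rose (10.7%) and 10 fell (35.7%) (4 and 5 with centred medians, 2 and 3 with the actin covariate). The choline kinase gene Chka (1.90 ± 0.29) was the largest rise of that list, while Lpgat1, an acyltransferase (-1.24 ± 0.19), fell. For Gdpd3 the vehicle arrays held 9.19, 8.60 and 8.34 and the tunicamycin arrays 5.26, 4.95 and 5.07. Gdpd3, a lysophospholipase D, fell (-3.62 ± 0.55). Of 25 genes of cholesterol synthesis and its control 1 rose and 10 fell (40%, against 13.3% of all genes), with a median of -0.61 (2 and 7 with centred medians, 1 and 6 with the actin covariate). The falls included Srebf1, a factor that drives lipid synthesis (-3.22 ± 0.24), which stands outside that list, and within it the kinase gene Mvk of the mevalonate steps (-1.46 ± 0.19), Fdft1, the squalene synthase gene (-1.41 ± 0.29), and Nsdhl, of a later sterol step (-1.36 ± 0.24), while Mvd, the decarboxylase of the mevalonate steps, rose (1.85 ± 0.23). Fdft1 did not pass with the actin covariate (adjusted p = 0.0674). Lrp1, the receptor that clears remnant lipoproteins, fell (-1.84 ± 0.19). Of 33 glucose genes 3 rose and 7 fell (6 and 5 with centred medians, 1 and 5 with the actin covariate). Gys2, the liver glycogen synthase (-1.47 ± 0.25), and Ppp1r3c, a glycogen-targeting phosphatase subunit (-1.77 ± 0.25), fell, and Ppp1r3b, another such subunit, rose (0.71 ± 0.16, adjusted p = 0.066 with the actin covariate). With vehicle Gldc was at 10.58, 10.63 and 10.87, with tunicamycin at 7.53, 7.85 and 7.36. The glycine cleavage gene Gldc fell (-3.11 ± 0.40), as did Mthfd1, of folate metabolism (-1.22 ± 0.14). Their list of 26 serine, glycine and folate genes changed both ways. In it 4 rose (15.4%) and 6 fell (23.1%), against 11.6% and 13.3% of all genes. These counts were 5 and 3 with centred medians, and 5 and 4 with the actin covariate. The widest change of the list was a rise, by 5.30.

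Genes of the growth hormone and insulin axis changed on both sides. Levels of Socs2 were 9.98, 9.04 and 9.53 with vehicle and 6.84, 6.61 and 6.43 with tunicamycin. Socs2 encodes the feedback inhibitor of growth hormone signalling and fell (-2.89 ± 0.37, adjusted p = 0.000146). Vehicle arrays gave 10.70, 10.02 and 10.45 for Igfals, and tunicamycin arrays 7.89, 7.39 and 7.67. Igfals encodes the subunit that holds IGF1 in its stable complex in plasma. Its change was -2.74 ± 0.22 (adjusted p = 5.4e-06). Igf1 gave 13.05, 12.86 and 12.89 in vehicle livers and 12.52, 12.32 and 12.61 in tunicamycin livers. Igf1 itself did not pass (change -0.45 ± 0.16, adjusted p = 0.0564), although its arrays did not overlap. Igfbp1, a binding protein that is high in fasting, rose (1.72 ± 0.19), as did Grb10, an adaptor that restrains the insulin receptor (1.94 ± 0.32, on 1 of 3 probe sets, the lowest of which was at 0.01). The Cux2 level was 8.99, 9.04 and 8.36 in the vehicle arrays and 6.23, 5.89 and 5.67 in the tunicamycin arrays. Cux2, a homeobox factor, fell (-2.87 ± 0.28). The sestrins, which restrain the growth kinase mTORC1, split: Sesn2, an ATF4 target, rose (1.57 ± 0.21), and Sesn3 fell (-1.18 ± 0.17). Sesn1 fell also (-1.08 ± 0.25), with an adjusted p of 0.11 with the actin covariate. Map2k6 stood at 8.70, 9.86 and 9.76 in vehicle livers and at 6.98, 5.90 and 6.56 with tunicamycin. Map2k6, a kinase upstream of p38, fell (-2.96 ± 0.41). Keg1 read 10.67, 10.13 and 10.62 in the vehicle arrays and 6.48, 6.19 and 6.77 in the tunicamycin arrays. Keg1, related to glycine acyltransferases, was 3 or more log2 units lower in each tunicamycin array, and its change of -3.99 ± 0.91 (adjusted p = 0.00693) had a wide error. The fit pools the spread of all 12 arrays, among them a null array that stood apart in kidney markers and is described below. The part of that array in the error was not tested. Over the alternatives the adjusted limma p of Keg1 ran from 1.22e-07 to 0.138. The largest was that with the actin covariate, where the Keg1 change was -3.07. Of 40 insulin and energy signalling genes 3 rose and 11 fell (6 and 5 with centred medians, 3 and 6 with the actin covariate). Among secreted hormones Angptl6, a hepatocyte factor, rose (1.51 ± 0.14).

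Interferon-inducible genes were lower. Of 53 cytokine and interferon genes 15 fell and 2 rose (11 falls with centred medians, 8 with the actin covariate), and the median was -0.49, or -0.38 relative to all genes. For Igtp the vehicle arrays held 11.24, 10.60 and 10.73 and the tunicamycin arrays 8.70, 7.87 and 8.03. With vehicle Iigp1 was at 12.31, 12.34 and 11.99, with tunicamycin at 10.13, 9.68 and 9.79. Both encode GTPases that defend cells against vacuolar pathogens. The change was -2.66 ± 0.32 for Igtp (adjusted p = 8.78e-05) and -2.35 ± 0.18 for Iigp1 (adjusted p = 4.24e-06), with the groups apart by more than 1 log2 unit in each. Irgm1, a regulator of the same GTPases (-1.75 ± 0.18), Ifi47 (-1.59 ± 0.32), the RNA sensor gene Ifit1 (-1.62 ± 0.19) and the transcription factor gene Irf1 (-1.48 ± 0.21) fell as well. The interferon-inducible parts of the proteasome followed, Psmb10 (-0.97 ± 0.12) and the activator subunit gene Psme1 (-0.74 ± 0.12) falling. Psmb8 fell too (-0.70 ± 0.18), but with centred medians (adjusted p = 0.102), as deposited (adjusted p = 0.146) and without tunicamycin replicate 3 (adjusted p = 0.0533) it did not pass. Over the 46 proteasome genes 4 rose (8.7%, against 11.6% of all genes) and 8 fell (17.4%, against 13.3%), none by 2-fold. These counts were 4 and 3 with centred medians, and 0 and 4 with the actin covariate. Nfkbia, the inhibitor of NF-κB, fell (-1.05 ± 0.19), as did the interleukin-1 receptor antagonist gene Il1rn (-1.31 ± 0.30). Of 14 markers of Kupffer cells, the liver's macrophages, 2 fell, Adgre1 (-0.75) and Mpeg1 (-0.99), and none rose. That share of 14.3% is near the 13.3% of falls over all genes. The values ran from -0.99 to 0.41 with a median of -0.50, with Clec4f at -0.24, Cd163 at 0.41 and Cd5l at 0.30, and their summed deposited intensity was 11254 to 17813 in vehicle and 10673 to 14532 in tunicamycin arrays. Their part in the result was not tested.

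Several junction genes fell. Levels of Cldn2 were 10.95, 10.74 and 10.41 with vehicle and 7.93, 7.75 and 7.56 with tunicamycin. Cldn2 forms the water- and cation-permeable pores of tight junctions, and its change was -2.95 ± 0.57 (adjusted p = 0.00248), with an adjusted p of 0.0544 with the actin covariate. Vehicle arrays gave 9.74, 8.88 and 8.44 for Cldn1, and tunicamycin arrays 6.82, 6.46 and 6.41. Cldn1, a barrier-forming claudin, fell (-2.46 ± 0.31). Cldn14 (-1.75 ± 0.24), the adherens junction gene Cdh1, which encodes E-cadherin (-1.47 ± 0.33), and the actin crosslinker gene Actn1 (-1.56 ± 0.17) fell too. Mpdz, a scaffold of tight junctions, fell (-2.65 ± 0.17). Of 60 cytoskeleton and junction genes 6 rose and 14 fell (7 and 8 with centred medians, 2 and 8 with the actin covariate). Markers of endothelial, stellate and bile duct cells gave no call in 11, 10 and 5 genes tested, with medians of -0.08, -0.21 and -0.13.

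The factors that keep hepatocyte identity fell in part. Of 29 listed 2 rose and 9 fell (2 and 7 with centred medians, 0 and 5 with the actin covariate). Foxa2 gave 9.34, 9.40 and 8.96 in vehicle livers and 7.85, 6.99 and 7.22 in tunicamycin livers. Foxa2, a pioneer factor of liver, fell (-1.88 ± 0.32, adjusted p = 0.00114). Cebpa (-1.44 ± 0.29), which drives metabolic genes, and the estrogen receptor gene Esr1 (-1.31 ± 0.23) fell. The Hnf4a level was 12.51, 12.43 and 12.46 in the vehicle arrays and 12.67, 12.58 and 12.67 in the tunicamycin arrays. Hnf4a, the central factor of this network, did not pass (0.17 ± 0.11, adjusted p = 0.307), and its groups stood next to each other. Other nuclear receptors that fell were Nr3c2, the mineralocorticoid receptor (-1.73 ± 0.24), and Rarb, a retinoic acid receptor (-1.35 ± 0.24).

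Clock genes changed in both directions. Arntl stood at 5.94, 5.59 and 6.05 in vehicle livers and at 9.39, 9.13 and 8.71 with tunicamycin. Arntl encodes BMAL1, the activating partner of CLOCK, and rose by 3.21 ± 0.26 (adjusted p = 5.14e-06) on the brighter of 2 probe sets, the other being at -0.23. Nfil3, a repressor of clock output, rose (2.22 ± 0.20), whereas the output activator gene Hlf (-2.10 ± 0.20) and the cell cycle kinase gene Wee1 (-2.26 ± 0.32) fell. Per1 read 7.39, 9.55 and 9.34 in the vehicle arrays and 10.37, 10.96 and 10.80 in the tunicamycin arrays. Per1 rose by 1.95 ± 0.44 (adjusted p = 0.0062), with vehicle replicate 1 about 2 log2 units under the others. Of 20 clock genes 4 rose and 7 fell (5 and 6 with centred medians, 4 and 4 with the actin covariate). The time of day of injection and harvest is stated in none of the sources used here.

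Early-response and growth arrest genes included many rises. Of 39 immediate-early and MYC network genes 13 rose (33.3%, against 11.6% of all genes) and 5 fell (11 and 1 with the actin covariate). For Myc the vehicle arrays held 6.17, 6.60 and 5.81 and the tunicamycin arrays 8.60, 8.56 and 8.67. Myc rose by 2.42 ± 0.28 (adjusted p = 6.54e-05), and so did its antagonist Mxd1 (2.94 ± 0.26), the TGF-β-induced factor gene Klf10 (2.08 ± 0.23), the orphan receptor gene Nr4a2 (2.07 ± 0.23), Btg2, an antiproliferative gene (1.75 ± 0.23), and the kinase gene Sgk1 (2.11 ± 0.23). Of 34 p53 and growth arrest genes 13 rose and 5 fell (11 and 1 with the actin covariate). With vehicle Cdkn1a was at 5.60, 6.35 and 5.69, with tunicamycin at 10.64, 10.64 and 10.30. Cdkn1a encodes the cell cycle inhibitor p21. Its change was 4.65 ± 0.38 on the brighter probe set and 0.58 on the other. Gadd45a (2.57 ± 0.44) and the nuclease gene Aen (1.63 ± 0.23) rose, while Phlda1 fell (-2.24 ± 0.31). Cell death genes went both ways. Levels of Tnfrsf12a were 6.59, 5.44 and 6.19 with vehicle and 9.53, 9.56 and 9.22 with tunicamycin. The TWEAK receptor gene Tnfrsf12a rose by 3.36 ± 0.40 and Cflar, an inhibitor of caspase-8, by 1.15 ± 0.17, whereas the pro-death genes Bmf (-2.01 ± 0.24), Bid (-0.96 ± 0.14) and the caspase gene Casp6 (-1.03 ± 0.17) fell. Of 37 death genes 4 rose (10.8%) and 7 fell (18.9%), against 11.6% and 13.3% of all genes (5 and 6 with centred medians, 3 and 4 with the actin covariate). In the large family of 300 zinc finger genes the shares were near those of all genes, as 39 rose (13%) and 31 fell (10.3%) (44 and 18 with centred medians, 15 and 9 with the actin covariate), with Zfp324 (2.81 ± 0.30) rising and Zfp467 (-2.28 ± 0.22) and Zfp395 (-2.39 ± 0.24) falling. Among 46 TRIM ubiquitin ligase genes 10 rose and 2 fell (13 and 2 with centred medians, 7 and 2 with the actin covariate), Trim46 (3.05 ± 0.18) and Trim68 (2.98 ± 0.32) the most. Both were near the floor of the scale in vehicle arrays (4.65 to 5.90). Of 39 cytosolic heat shock genes 1 rose, the co-chaperone Bag3 (2.01 ± 0.26), and 5 fell (4 and 1 with centred medians, 1 and 2 with the actin covariate).

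Iron genes as a list were called about as often as all genes, with 4 rises (13.8%) and 3 falls (10.3%) among 29 genes of iron and other metals, and 3 of 15 heme genes rose and 6 fell (3 and 4 with centred medians, 3 and 2 with the actin covariate). Vehicle arrays gave 11.12, 10.35 and 10.29 for Tfrc, and tunicamycin arrays 8.39, 8.60 and 8.40. Tfrc, the transferrin receptor, fell (-2.13 ± 0.21, adjusted p = 2.65e-05). Slc40a1, the iron exporter ferroportin, fell as well (-1.38 ± 0.16), and the importer Slc11a2 rose (1.51 ± 0.26). Hamp gave 13.39, 13.39 and 13.55 in vehicle livers and 13.98, 13.87 and 13.89 in tunicamycin livers. Hamp, the iron hormone hepcidin, rose by 0.47 ± 0.12 (adjusted p = 0.0136) close to the array maximum, and with the actin covariate its adjusted p was 0.0924. The Alas1 level was 12.49, 12.56 and 12.71 in the vehicle arrays and 10.81, 11.18 and 11.23 in the tunicamycin arrays. Alas1 is the rate-limiting enzyme of heme synthesis and fell (-1.51 ± 0.15, adjusted p = 2.76e-05), whereas Ppox, of a later step, rose (1.24 ± 0.18). Secreted plasma proteins outside these lists fell in part: of 39 complement and coagulation genes 1 rose and 14 fell (1 and 8 with centred medians, 0 and 6 with the actin covariate), Proz, protein Z (-1.15 ± 0.21), at their head, and of 25 serpins none rose and 7 fell (0 and 5 with centred medians, 0 and 4 with the actin covariate), among them Serpinb1a (-1.88 ± 0.28). The major urinary protein gene Mup10 fell (-2.33 ± 0.30), in a cluster of near-identical genes. Calcium genes changed both ways. Of 31 calcium pump, channel and buffer genes 8 rose (25.8%) and 4 fell (12.9%), against 11.6% and 13.3% of all genes. These counts were 8 and 2 with centred medians, and 4 and 1 with the actin covariate. The median change was -0.14, and the largest fall was -1.22. The rises included the calcium pump gene Atp2a2 (1.65 ± 0.12) and Calu, a calcium-binding ER protein (1.47 ± 0.18).

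Where the response of control livers differed from that of Ire1α null livers, a gene had nearly always risen in control livers and changed by less, or not upward, in null livers. The difference between the genotypes' responses, tested as the interaction, passed for 122 of 14568 genes (0.837%), and for 121 of the 3636 that were called in control livers (3.33%). Of these, 118 had risen in control livers and had a lower null change and 1 a higher one, while of the falls 1 was smaller and 1 larger in null livers. The number depends on single arrays: it was 14 to 107 without 1 of the control arrays, lowest without tunicamycin replicate 2 (14) and tunicamycin replicate 1 (31), 40 without vehicle replicate 3, and 64 without vehicle replicate 1 or 2. Tunicamycin replicate 2 of the null livers stood apart, with a mean level of 10.63 over 8 kidney markers against 5.30 to 5.96 in the other 11 arrays, and without it the count was 126. Gnat2 stood at 5.49, 5.11 and 5.20 in vehicle livers and at 8.96, 9.26 and 9.18 with tunicamycin. In control livers Gnat2, a G protein subunit of cone cells, rose by 3.87 ± 0.14 and in null livers by 1.58 ± 0.14, an interaction of -2.29 ± 0.20 (adjusted p = 0.000604). For Tspyl2 the change was 2.30 ± 0.15 in null livers against 4.90 ± 0.15 in control livers (adjusted p = 0.000604 for the interaction). Nde1 read 7.25, 7.14 and 7.01 in the vehicle arrays and 10.98, 11.41 and 10.58 in the tunicamycin arrays. Nde1, a partner of the dynein motor, rose by 3.86 ± 0.21 and in null livers by 1.11 ± 0.21 (adjusted p = 0.00271). For P3h1 the vehicle arrays held 7.12, 6.85 and 6.91 and the tunicamycin arrays 9.13, 9.34 and 8.95. P3h1, a prolyl hydroxylase of collagen in the ER, rose by 2.18 ± 0.15 in control livers, and its change in null livers was 0.22 ± 0.15 (adjusted p = 0.00271). With vehicle Parn was at 8.38, 8.74 and 8.36, with tunicamycin at 10.63, 10.74 and 10.25. The poly(A)-shortening nuclease gene Parn rose by 2.05 ± 0.17 against a change of 0.19 ± 0.17 in null livers (adjusted p = 0.00793). Gmppa (2.22 ± 0.16 against 0.54 ± 0.16) and Gmppb (3.84 ± 0.22 against 1.55 ± 0.22), which supply GDP-mannose to glycan assembly, differed likewise (adjusted p = 0.00793 for both interactions). The interaction passed for Stx5a, Sec22b, Bet1 and Gosr2, and the null changes of Bet1 and Gosr2 were -0.10 ± 0.18 and 0.03 ± 0.14. Hapln4, a hyaluronan link protein, and Sgsm1, a regulator of small GTPases, changed by 0.30 ± 0.20 and 0.54 ± 0.19 in null livers against 2.43 ± 0.20 and 2.67 ± 0.19. Of the genes described above outside the ER lists, the interaction also passed, with a null change below the rise of control livers, for Zfp9, Ppip5k1, Bhlha15, Slc17a9, Slc26a2, Ccdc134, Cad, Srm, Mxd1, Nr4a2, Rbl1, Trim46, Cars2 and Cflar. Bid alone fell less, with a null change of 0.20 ± 0.14. For Nucb2 (null change 2.90 ± 0.45) and Far1 (2.35 ± 0.78) the interaction did not pass. In the ribosome biogenesis, cytosolic synthetase and translation factor lists it passed for no gene, and the medians in null livers were 0.75, 0.90 and 0.29. In the xenobiotic, interferon, junction and hepatocyte factor lists it passed for none either. A difference that misses the threshold with 3 arrays per group does not show that the genotypes responded alike.

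**Figure D5:**
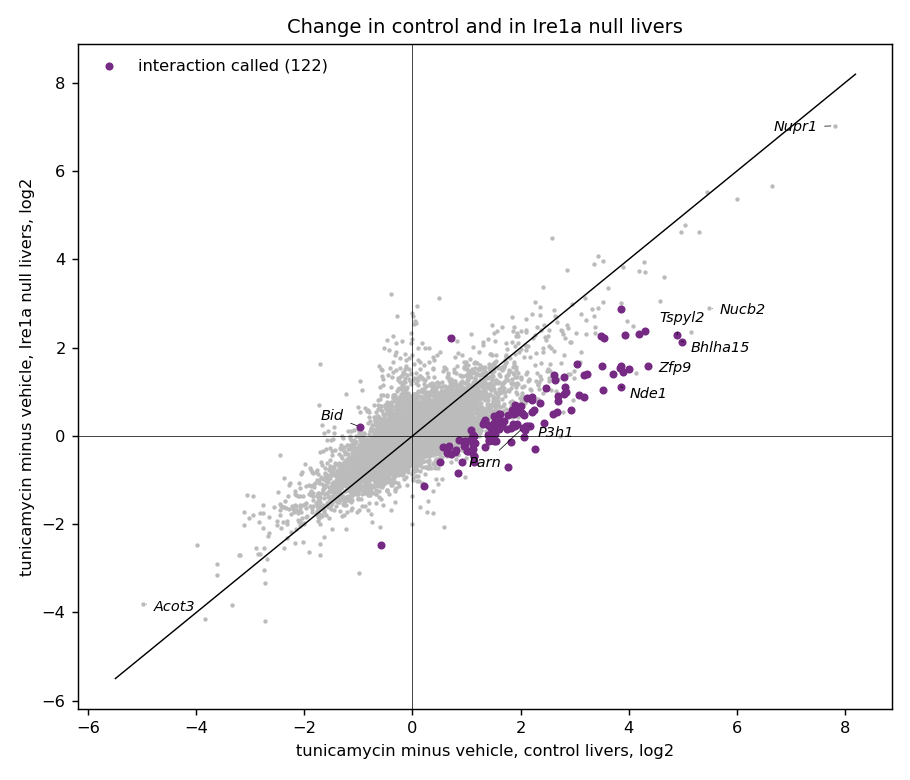
Change with tunicamycin in control livers (horizontal) against that in Ire1α null livers (vertical), both log2, for 14568 genes, with the line of equal change. The 122 purple genes passed the interaction test, 118 of them under the line on the side of rises, while Nupr1 and Acot3 lie near it.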

How the data were processed

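Total RNA of mouse liver was labelled with biotin and hybridised to Affymetrix arrays, per the labels' protocols. The authors deposited a linear intensity for each of 45101 probe sets. How probes were summarised, scaled or filtered is stated in none of the sources used here. As array quantiles differed, the intensity values were treated as not normalized. The 64 control probe sets were not used, and symbols were those of the platform annotation: 34945 probe sets had 1 symbol, and the 932 with several and 9160 with none were not tested.

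Values were transformed to log2(intensity + 16), which understates changes of dim genes, and quantile normalized over 12 arrays. The 30% dimmest probe sets were left out, and the brightest probe set represented each gene. Group means of all 12 arrays were fitted with lmFit and eBayes of limma 3.58.1 in R 4.3.3 (package data.table in version 1.17.8), with 8 residual degrees of freedom. The labels call the arrays biological replicates. The genes and lists were chosen with earlier results of these data known, so list counts are given without a test of the list, to be read against the shares over all genes. Named genes came from a rule: fixed anchor genes, the 30 largest rises and 30 largest falls with groups that do not overlap, the 15 largest each way outside ER lists, up to 6 called members of each list, and the 10 smallest interaction p values. Of these not all were used, and those that kept their call under the alternatives were preferred. Ero1b, Pdia6 and Asns were named through their promoters, the Kupffer cell markers through their list, and the cholesterol, mitochondrial import and glycogen genes were added after their values were seen.

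Tested on data simulated for this comparison with 14568 genes, the fit recovered 60 of 100 genes with a true 2-fold and 95 of 100 with a true 4-fold difference, and made 7 false calls. The simulation drew independent normal noise for each gene and array and changed only these genes. It left out normalization, the choice of probe set and any effect shared between arrays. In the real data 25% of genes were called, so these rates check the fit and do not measure its errors here. Alternatives were a pseudocount of 1 or 64, no or a 50% intensity filter, centred medians, values as deposited, averaged probe sets, eBayes with a trend and robust fitting, leaving out _x_at and _s_at probe sets, the 6 control arrays alone, the replicate number as a block, the actin ratio as a covariate, and leaving out single arrays. Promoters were searched and figures drawn in Python 3.11.15 with pandas 2.3.3 and matplotlib 3.10.9.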

Additional observations from a re-analysis of the deposited data

Results flagged for a closer look

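The difference between the response of null and of control livers (null minus control, log2, limma interaction, adjusted p under 0.05) passed for 29 of the genes named above. In 28 of them the null change lay below the rise of control livers, and it was under 0 for Bet1, Cars2 and Cflar. Differences beyond -2 were those of Bhlha15 (-2.84), Zfp9 (-2.77), Nde1 (-2.74), Tspyl2 (-2.60), Slc17a9 (-2.46), Mxd1 (-2.35), Slc26a2 (-2.30), Gmppb (-2.29), Gnat2 (-2.29), Sgsm1 (-2.14) and Hapln4 (-2.13). Between -2 and -1.5 lay P3h1 (-1.96), Nr4a2 (-1.95), Cad (-1.93), Ppip5k1 (-1.93), Rbl1 (-1.90), Ccdc134 (-1.87), Parn (-1.86), Gmppa (-1.68) and Bet1 (-1.51). The smallest were those of Trim46 (-1.42), Sec22b (-1.37), Stx5a (-1.33), Srm (-1.24), Cars2 (-1.15), Cflar (-1.15), Gosr2 (-1.10) and Syvn1 (-0.99). Bid, which fell in control livers, had the opposite sign (1.16), its null change being 0.20. Largest of the 29 adjusted p values was 0.0496, for Cflar.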

How the results depend on the processing

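The 3636 called genes became 1765 with the actin ratio as a covariate (1641 of them shared). The count stayed within 1.5 times of 3636 under the other alternatives, at 2582 to 3307 when 1 control array was left out. Tunicamycin replicate 2 of the null livers was kept in the main fit, and without it 4071 genes passed. Arrays of equal replicate number deviated from their group means with correlations of 0.24, -0.07 and 0.49, and as 1 of these was under 0.1 and the labels name no pairing, the numbers were not taken as pairs. Of the 6 control arrays 4 matched their own number best, and the second principal component placed replicate 1 highest and replicate 3 lowest in both groups, a hint from the data of a shared effect. With the replicate number as a block 3374 genes passed, 3289 of them shared, and 59 interactions. The interaction count of 122 was 71 with a pseudocount of 1, 186 with 64, 65 with the actin covariate, 14 to 107 when 1 control array was left out and 126 without tunicamycin replicate 2 of the null livers. The cause of these shifts was not tested. Of 196 called genes named above, 181 passed in each of the 19 alternatives that tested them. Acot3, Bmf, Gar1, Mrps12 and Nr4a2 were tested in 18 of the 19. Of the 15 other genes 13 lost the call with the actin covariate and 2, Alg12 and Psmb8, without 1 tunicamycin array. The named genes were partly chosen for stability, so that their share does not stand for all called genes. The Ern1 value turned to -0.086 with the mean of its probe sets. Levels near the top of the scale (149 genes within 1 log2 unit of the lowest array maximum, 15 of them called) can hide rises, and dim vehicle levels make large changes depend on the pseudocount.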
